A study of Homo sapiens with 6 samples.

Results

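The Wnt module examined here comprised 49 genes with a probe set of their own, out of 18132 genes on the array. They were chosen by symbol: every WNT ligand, FZD (Frizzled) receptor, SFRP and DKK gene of the platform annotation, together with LRP5, LRP6, AXIN1, AXIN2, APC, LEF1, TCF7L1, RNF43, ZNRF3, LGR4, ROR1, ROR2 and NKD1. TCF7 and PORCN, also on the list, were not analysed here. Where a gene had several probe sets, the brightest on average stands for it. Transcript levels were compared between 3 xenograft tumors of CRL-5889 cells transfected with the TRA2B-DNAH5 fusion (labelled TD) and 3 tumors of the same cells transfected with vector (labelled ctrl). CRL-5889 is an established human line described as lung squamous carcinoma. All tumors were grown in nude mice, which lack a thymus and so most T cells, and were taken 4 weeks after implantation. The labels do not name the promoter that drives the fusion, do not say whether either transfected population was a single clone, and do not give the age or sex of the hosts. Because the fusion tumors and the vector tumors came from separately transfected cells, the fusion and any other difference between the transfected populations cannot be told apart.

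Wnt ligands are secreted, lipid-modified proteins. They bind Frizzled receptors, and with the co-receptors LRP5 or LRP6 they stop the destruction complex of AXIN and APC from marking beta-catenin for degradation, so that beta-catenin reaches the nucleus and activates genes bound by TCF and LEF factors. Other ligands, WNT5A and WNT5B among them, act mainly through branches without beta-catenin, often with the receptor kinases ROR1 and ROR2. SFRP proteins bind Wnts and DKK1, DKK2 and DKK4 act on LRP5 and LRP6, and the ligases RNF43 and ZNRF3 remove Frizzled receptors from the surface unless R-spondin and LGR4 hold them off. AXIN2, LEF1, NKD1, RNF43 and ZNRF3 are themselves induced by beta-catenin in many tissues and so feed back on the pathway.

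Values are log2 probe set values as deposited. The array medians lay between 6.27 and 6.39, and Pearson's r between any 2 arrays over all probe sets was 0.989 to 0.997. Vector tumor 1 stood apart from the other 5 tumors on the first principal component of all probe sets (42.4% of the variance, score 55.8 against -14.8 to -2.73), and for several genes the fold change without it is given too. Of 10 squamous markers, 7 had a probe set of their own. KRT5 averaged 5.06 in fusion tumors and 5.19 in vector tumors, and KRT14 averaged 5.71 in fusion tumors and 5.70 in vector tumors. SERPINB5 averaged 5.10 in fusion tumors and 5.17 in vector tumors, and CALML3 averaged 5.89 in fusion tumors and 5.69 in vector tumors. SOX2 averaged 8.82 in fusion tumors and 9.65 in vector tumors. Every SOX2 fusion value lay below every vector value, as for 5.74% of all tested genes (limma adjusted p = 0.369). DSG3 and DSC3 lay below 4.94, the log2 level used as a filter on dim probe sets. That filter is the 30th percentile of all probe sets. Without detection calls, a dim value cannot be read as absence of the transcript. Different probe sets respond differently to the same amount of RNA, so values are compared between tumors and never between genes.

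Promoter windows of 3 Wnt genes are shown. WNT5B and ROR2 had the largest differences between the groups. DKK1 was the only member whose window held CTTTGAT or CTTTGTT, which are forms of the TCF/LEF core. Other forms, such as the CTTTGAA in the DKK1 window, were not searched for and are not marked. Sequences are RefSeq's for GRCh38.p14, 250 bases upstream of an annotated start, 5' to 3' on the gene's strand, and capitals mark a match to CTTTGAT or CTTTGTT on either strand. WNT5B has annotated starts after chr12:1616806-1617055 and chr12:1628981-1629230 (plus strand), the ROR2 window is chr9:91950229-91950478 (minus strand), and the DKK1 window is chr10:52314031-52314280 (plus strand).
WNT5B, upstream start: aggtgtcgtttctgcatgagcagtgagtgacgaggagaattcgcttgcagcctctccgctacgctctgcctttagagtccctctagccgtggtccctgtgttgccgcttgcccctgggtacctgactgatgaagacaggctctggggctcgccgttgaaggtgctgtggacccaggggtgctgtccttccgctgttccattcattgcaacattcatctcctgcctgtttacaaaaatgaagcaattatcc
WNT5B, downstream start: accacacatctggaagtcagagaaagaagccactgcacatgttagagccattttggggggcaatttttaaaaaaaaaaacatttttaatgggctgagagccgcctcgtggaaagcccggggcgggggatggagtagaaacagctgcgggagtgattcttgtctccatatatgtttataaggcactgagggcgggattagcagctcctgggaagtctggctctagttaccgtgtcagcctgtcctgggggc
ROR2: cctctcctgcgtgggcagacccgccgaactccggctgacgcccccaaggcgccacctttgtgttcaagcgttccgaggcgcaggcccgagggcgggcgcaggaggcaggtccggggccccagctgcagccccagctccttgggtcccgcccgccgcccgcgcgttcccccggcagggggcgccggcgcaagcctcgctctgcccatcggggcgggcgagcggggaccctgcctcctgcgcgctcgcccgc
DKK1: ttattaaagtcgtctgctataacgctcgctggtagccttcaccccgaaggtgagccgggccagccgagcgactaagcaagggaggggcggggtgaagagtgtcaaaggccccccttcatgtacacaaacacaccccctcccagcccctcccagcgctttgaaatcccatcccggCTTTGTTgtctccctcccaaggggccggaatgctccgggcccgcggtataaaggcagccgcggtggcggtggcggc
The WNT5B windows had a GC content of 54.8% and 50.8%, against 78% for ROR2 and 62.8% for DKK1. The DKK1 match, CTTTGTT, began 76 bases before the start. Of 33 members with a window in the table (38 windows in all), the DKK1 window was the 1 with a match (2.63% of windows), against 6.60% of all 35114 windows of the same length. The members' windows were richer in GC, with a median of 69.6% and 22 CG dinucleotides, against 58% and 11 over all windows. These letters describe the windows only and were not tested for use in the tumors.

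No Wnt gene passed the test. Of the 49 members, 39 reached the filter level and were tested with limma across 13694 genes, and 0 had an adjusted p below 0.05 in either direction, where 0.073% of all tested genes passed (0.0584% higher and 0.0146% lower in fusion tumors). At an unadjusted limma p below 0.05 there were 3 members (7.69%), WNT5B, DKK3 and ROR2, all 3 lower in fusion tumors, beside 5.89% of all tested genes, 2.73% lower and 3.16% higher. Counted over both directions together, the members' share was near the background. The log2 fold changes, given throughout as fusion minus vector, ran from -0.49 for WNT5B to 0.26 for FZD5. Their median was -0.0025 over members and 0.0020 over all tested genes, with 18 members above 0 and 21 below. Fusion values lay wholly below vector values in 4 members (WNT5B, DKK3, ROR2 and DKK4) and wholly above in 0, which is 10.3% of the members, beside 11.7% of all tested genes, 5.74% below and 5.94% above. The 95% limma intervals of all 39 tested members lay within a 2-fold change in either direction, and those of 37 within 1.5-fold, the exceptions being WNT5B and ROR2.

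**Figure D1:**
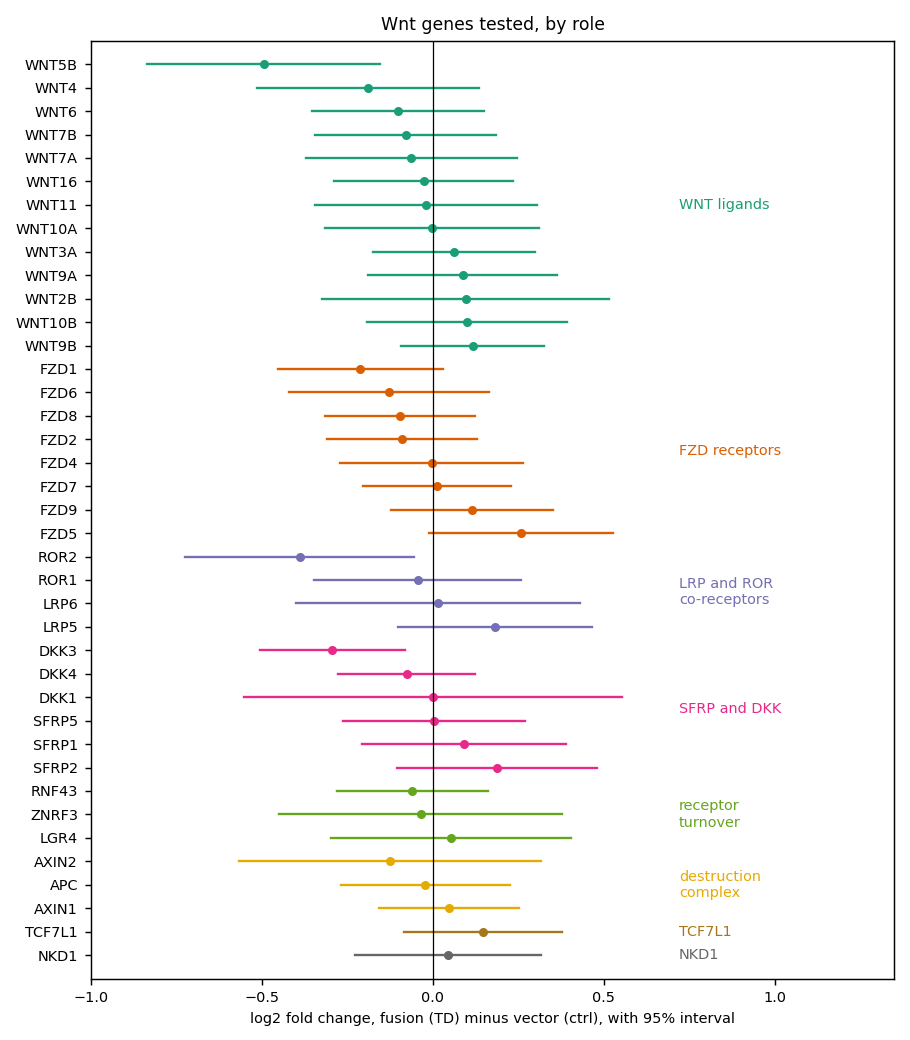
Log2 fold change of each of the 39 tested Wnt genes (points) with limma's 95% interval (lines), fusion minus vector on the horizontal axis, 3 tumors per group, genes ordered by role and coloured by it. Intervals of WNT5B, ROR2 and DKK3 lie wholly below 0, those of the other 36 cross it.

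**Figure D2:**
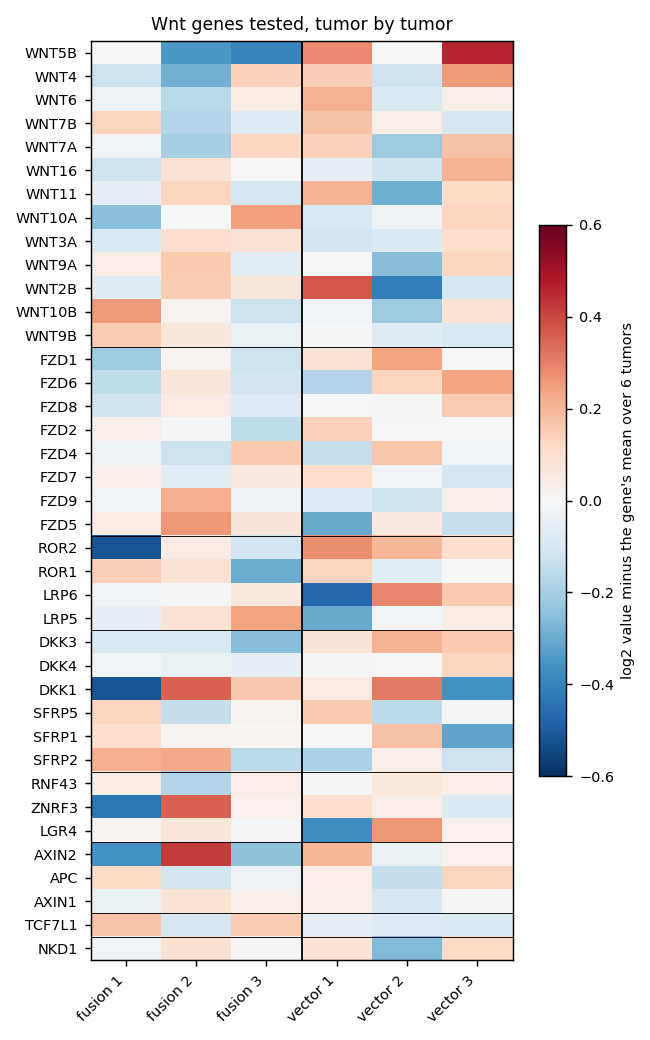
Log2 value of each tested Wnt gene in each tumor (columns, 3 fusion then 3 vector) minus the mean of that gene over the 6 tumors, with red above and blue below that mean and black lines between roles. The rows of WNT5B, ROR2 and DKK3 are mostly blue in fusion tumors and red in vector tumors, with near-white cells for WNT5B in fusion tumor 1 and vector tumor 2 and for ROR2 in fusion tumor 2, while most other rows vary as much within a group as between groups.

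Mean levels of markers of host or stromal cells did not overlap between the groups for 2 of 5 lists, and members of both lists went both ways. Of single tested genes, 11.7% separated the groups without overlap. The mean log2 value of 12 fibroblast markers was 6.91 to 6.99 in fusion tumors and 6.69 to 6.89 in vector tumors, with 10 of 12 above the filter level and DCN and LUM below it. Of its 10 tested members, 7 had a log2 fold change above 0 and 3 below. FAP (0.91), COL1A1 (0.65), THY1 (0.36) and COL1A2 (0.24) lay wholly above the vector values, and FBN1 (-0.50) wholly below. POSTN (0.27), COL3A1 (0.20), PDGFRB (0.019), PDGFRA (-0.15) and ACTA2 (-0.13) overlapped between the groups. PDGFRA values were 12.9 to 13.1 in fusion tumors and 12.8 to 13.4 in vector tumors. Whether tumor or host cells made the PDGFRA transcript was not tested. The mean of 9 adipocyte markers was 5.70 to 5.75 in fusion tumors and 5.82 to 5.97 in vector tumors, with FABP4 and LEP below the filter level. PPARG (-0.38) and CIDEC (-0.26) lay wholly below the vector values. PLIN1 (-0.33), PLIN4 (-0.14), ADIPOQ (-0.091), ADIRF (0.098) and LPL (0.040) overlapped between the groups. Endothelial markers (5.57 to 5.59 in fusion tumors and 5.47 to 5.63 in vector tumors, with TEK, CLDN5 and EMCN of 8 dim), leukocyte markers (5.38 to 5.45 in fusion tumors and 5.31 to 5.39 in vector tumors, with PTPRC, CD14, CD163 and LYZ of 10 dim) and skeletal muscle markers (5.38 to 5.89 in fusion tumors and 5.48 to 5.99 in vector tumors, with MYH1, MYH2 and MYL1 of 8 dim) overlapped between the groups. Within the leukocyte list, CD68, a macrophage marker also found in other cells, was at 0.80 without overlap (limma adjusted p = 0.112). CSF1R (0.17) lay wholly above and TYROBP (-0.13) wholly below the vector values. AIF1 (-0.039), CD3E (0.024) and ITGAM (0.020) overlapped between the groups. WNT5B, DKK3 and ROR2 can all be made by stromal cells, and the part of such cells in their differences was not tested. In whole tumors, fewer cells of a type and less RNA per cell cannot be told apart, and how far mouse RNA binds these human probe sets was not tested.

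Among the ligands, WNT5B differed most. WNT5B, which acts mainly outside the beta-catenin branch, had log2 values of 7.43, 7.08 and 7.03 in the fusion tumors, in the order of their numbers, and 7.71, 7.43 and 7.88 in the vector tumors. Fusion tumor 1 and vector tumor 2 nearly met, and the groups otherwise stood clear of each other. The means were 7.18 ± 0.22 in fusion tumors and 7.68 ± 0.23 in vector tumors (SD, n = 3 each), a log2 fold change of -0.49 (SE 0.15, 95% interval -0.84 to -0.15), or 1.41-fold higher in vector tumors. Limma gave p = 0.0100 unadjusted and an adjusted p = 0.574, and an exact two-sided permutation test gave 0.1, the smallest p that 3 against 3 tumors allow. The annotation holds 2 more WNT5B probe sets, both above the filter level. They averaged lower in fusion tumors as well, at 5.78, 5.72 and 5.48 against 6.05, 6.05 and 6.63 in vector tumors for one, and at 4.95, 5.11 and 4.94 against 5.49, 5.34 and 5.76 in vector tumors for the other. In all 3 probe sets every fusion value was below every vector value, with log2 fold changes of -0.49, -0.58 and -0.53. The probe sets read the same transcripts in the same 6 tumors and are not replicates of each other.

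**Figure D3:**
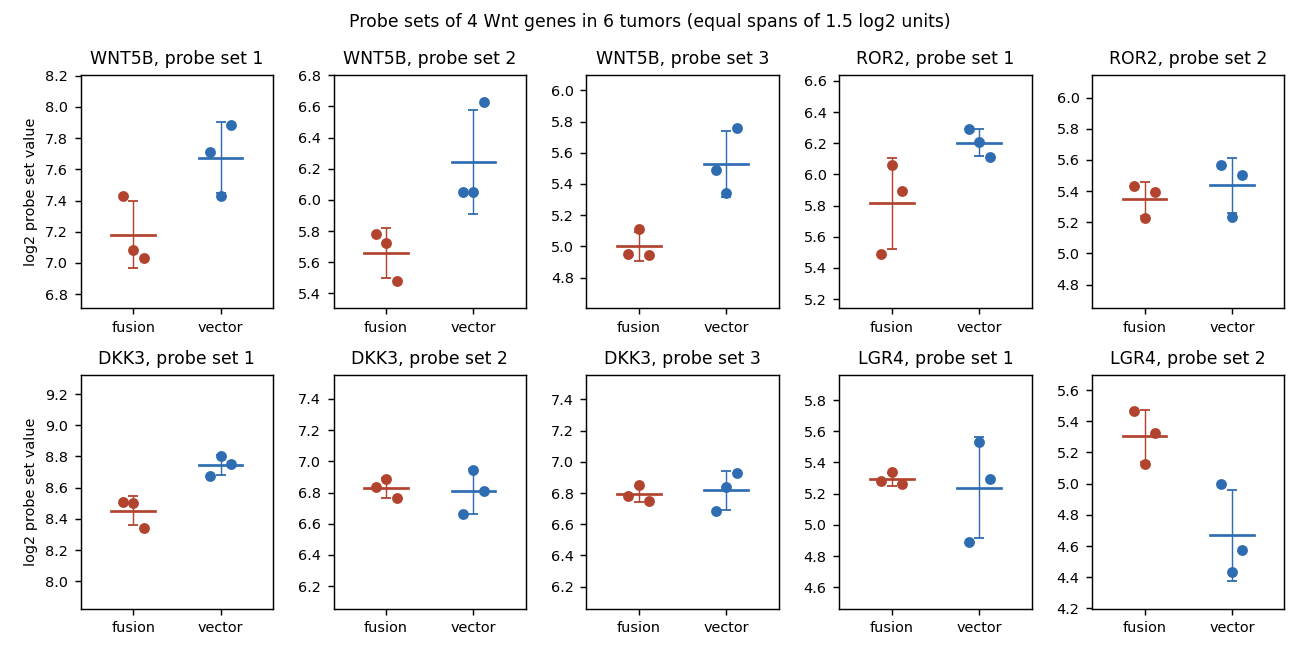
Log2 values of 10 probe sets of WNT5B, ROR2, DKK3 and LGR4, numbered from the brightest of each gene, in fusion tumors (left, red points) and vector tumors (right, blue points), with bars for the mean and SD of 3 tumors and the same span of 1.5 log2 units in every panel. The 3 WNT5B probe sets separate the groups alike, whereas only 1 probe set shown of ROR2, of DKK3 and of LGR4 does.

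The other 12 tested WNT genes lay between log2 fold changes of -0.19 and 0.12. WNT4, an embryonic patterning ligand, had 6.34, 6.18 and 6.60 in fusion tumors and 6.62, 6.34 and 6.72 in vector tumors (log2 fold change -0.19, SE 0.14, limma adjusted p = 0.962). The groups overlapped, and fusion tumor 3 exceeded vector tumor 2. Other WNT4 probe sets pointed the other way, at 0.043 and, below the filter level, 0.11. With the mean of its probe sets WNT4 was at -0.011. WNT9B, a ligand of kidney development, had 6.91, 6.82 and 6.71 in fusion tumors and 6.74, 6.68 and 6.66 in vector tumors (0.12, SE 0.092, limma adjusted p = 0.962). WNT10B, which signals through beta-catenin, had 7.09, 6.86 and 6.70 in fusion tumors and 6.81, 6.62 and 6.92 in vector tumors (0.10, SE 0.13), with the groups fully interleaved. WNT2B had 5.99, 6.21 and 6.13 in fusion tumors, within the wider range of 6.43, 5.64 and 5.96 in vector tumors (log2 fold change 0.096). Vector tumor 1 was the high WNT2B value, and without it the log2 fold change was 0.31, at an unadjusted limma p below 0.05. Vector tumor 2 was the lowest WNT2B value, and leaving it out instead would lower the log2 fold change. The other WNT2B probe set was at 0.00096. WNT5A, the closest relative of WNT5B, stayed below the filter level in every tumor, at 4.70, 4.76 and 4.65 in fusion tumors and 4.45, 4.60 and 4.79 in vector tumors, and its 5 probe sets differed between the groups by -0.081 to 0.090. The remaining ligands below that level were WNT1, WNT2, WNT8A and WNT8B. WNT3 is named only on probe sets shared with a second gene, and it was left out by the rule.

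Frizzled receptors showed no common direction, with 3 of 8 tested genes above 0 and 5 below, and 0 at a limma p below 0.05. FZD5, a receptor of beta-catenin signalling in epithelia, had the highest log2 fold change of all members. Its values were 7.83, 8.04 and 7.86 in fusion tumors and 7.48, 7.84 and 7.65 in vector tumors (log2 fold change 0.26, SE 0.12, limma adjusted p = 0.866). Vector tumor 2 reached just above the lowest fusion value, and without vector tumor 1, the lowest of the 6, the log2 fold change was 0.17. The 5 FZD5 probe sets disagreed, from -0.16 to 0.26. FZD1 had 6.77, 7.0004 and 6.86 in fusion tumors and 7.07, 7.22 and 6.98 in vector tumors, with overlap (-0.21, SE 0.11, limma adjusted p = 0.916). Its other probe set gave -0.052. FZD6, a receptor tied to planar polarity, stood at 10.05, 10.28 and 10.10 in fusion tumors and 10.03, 10.34 and 10.45 in vector tumors (-0.13, SE 0.13). Vector tumor 1 held the lowest FZD6 value, and without it the log2 fold change was -0.25, at an unadjusted limma p below 0.05. FZD2 stood at 8.77, 8.73 and 8.59 in fusion tumors and 8.89, 8.74 and 8.74 in vector tumors (-0.090, SE 0.096; -0.042 without vector tumor 1). FZD9 had 5.99, 6.23 and 5.98 in fusion tumors and 5.93, 5.88 and 6.04 in vector tumors (0.12, SE 0.10). FZD8 had 6.02, 6.19 and 6.06 in fusion tumors and 6.14, 6.13 and 6.29 in vector tumors (-0.096, SE 0.096). These 2 genes, FZD7 (0.012) and FZD4 (-0.0025) overlapped between the groups, and FZD3 and FZD10 lay below the filter level.

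Of the 4 co-receptors, ROR2 was the member at a limma p below 0.05. ROR2, the receptor kinase that binds WNT5A and takes part in cell polarity and migration, had 5.49, 6.06 and 5.90 in fusion tumors and 6.29, 6.21 and 6.11 in vector tumors. The groups did not overlap, but fusion tumor 1 lay well below fusion tumors 2 and 3 and held much of the difference. The log2 fold change was -0.39 (SE 0.15, 95% interval -0.72 to -0.054, limma adjusted p = 0.733). Without fusion tumor 1 it was -0.23, and it then no longer reached an unadjusted p of 0.05, nor did it without vector tumor 1 or without vector tumor 2. The other ROR2 probe sets gave -0.087 and -0.033, and the brightest carries the suffix that marks probe sets able to read related transcripts. ROR1 had 7.09, 7.04 and 6.65 in fusion tumors and 7.08, 6.88 and 6.95 in vector tumors (-0.043, SE 0.13). LRP5 had 6.21, 6.35 and 6.50 in fusion tumors and 5.96, 6.24 and 6.31 in vector tumors (0.18, SE 0.12, limma adjusted p = 0.962; 0.078 without vector tumor 1). LRP6 had 9.85, 9.87 and 9.94 in fusion tumors, a narrow range, and 9.41, 10.17 and 10.04 in vector tumors (0.016, SE 0.18). Vector tumor 1 was the low LRP6 value, and without it the log2 fold change was -0.22 (limma adjusted p = 0.522).

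Secreted inhibitors were led by DKK3, a divergent Dickkopf member whose action on LRP6 is not settled. DKK3 had 8.51, 8.50 and 8.34 in fusion tumors and 8.67, 8.80 and 8.75 in vector tumors. All fusion values lay below all vector values, with little spread in either group. The means were 8.45 ± 0.093 in fusion tumors and 8.74 ± 0.066 in vector tumors (SD, n = 3 each). The difference was -0.29 on the log2 scale (SE 0.093, 95% interval -0.51 to -0.080, adjusted p = 0.617 by limma). The other 5 DKK3 probe sets ranged from -0.25 to 0.022, and none of them separated the groups. DKK4 also had fusion values (5.28, 5.25 and 5.24) below vector values (5.28, 5.29 and 5.42), but by a log2 fold change of only -0.076 (limma adjusted p = 0.970). DKK1, the inhibitor of LRP6 whose promoter is shown above, varied widely inside both groups. It had 4.94, 5.82 and 5.62 in fusion tumors and 5.51, 5.77 and 5.10 in vector tumors, for a log2 fold change of 0.00086 with a 95% interval of -0.55 to 0.55. SFRP2 had 5.60, 5.61 and 5.22 in fusion tumors and 5.20, 5.42 and 5.26 in vector tumors (0.19, SE 0.13, limma adjusted p = 0.962), while SFRP1 and SFRP5 were at 0.091 and 0.0038. DKK2 and SFRP4 lay below the filter level. Over the 6 tumors, the members whose values most resembled those of WNT5B were DKK4 (Pearson's r = 0.82), DKK2 (0.82) and DKK3 (0.77). These share the same 6 arrays, and DKK2 is dim.

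The feedback genes of the pathway overlapped between the groups in their brightest probe sets. AXIN2, a scaffold of the destruction complex and a widely used readout of beta-catenin, had 5.20, 5.98 and 5.32 in fusion tumors and 5.76, 5.52 and 5.59 in vector tumors (log2 fold change -0.13, SE 0.19, 95% interval -0.57 to 0.32, limma adjusted p = 0.983). Fusion tumor 2 held the highest AXIN2 value of all 6 tumors and the other fusion tumors the lowest, and without fusion tumor 2 the log2 fold change was -0.37 (limma adjusted p = 0.743). ZNRF3 followed a like order in fusion tumors, with 6.37, 7.15 and 6.83 there and 6.90, 6.84 and 6.72 in vector tumors (-0.035, SE 0.18). RNF43 had 7.16, 6.95 and 7.16 in fusion tumors and 7.11, 7.18 and 7.16 in vector tumors (-0.060, SE 0.096). Of the other 5 RNF43 probe sets, all below the filter level, 4 were lower in fusion tumors, and those at -0.39 and -0.18 separated the groups. NKD1, an inhibitor of Dishevelled, had 7.04, 7.15 and 7.05 in fusion tumors and 7.14, 6.79 and 7.17 in vector tumors (0.045, SE 0.12). All 9 probe sets of LEF1 lay below the filter level, with log2 fold changes of -0.097 to 0.094.

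AXIN1 and APC form the core of the destruction complex. AXIN1 had 7.88, 8.003 and 7.95 in fusion tumors and 7.96, 7.82 and 7.91 in vector tumors (log2 fold change 0.049, 95% interval -0.16 to 0.25). APC had 7.40, 7.18 and 7.25 in fusion tumors and 7.33, 7.14 and 7.42 in vector tumors (-0.021, 95% interval -0.27 to 0.23). Both genes overlapped between the groups here. Another APC probe set, also above the filter level, had 7.08, 7.13 and 7.08 in fusion tumors and 6.65, 6.93 and 7.04 in vector tumors, without overlap (0.22, SE 0.12, limma adjusted p = 0.971 over all probe sets naming 1 gene), and the remaining one was at -0.0014. TCF7L1, a TCF factor that mostly represses, had 7.31, 7.04 and 7.30 in fusion tumors and a tight 7.09, 7.07 and 7.06 in vector tumors (0.15, SE 0.10, limma adjusted p = 0.962), and its other probe sets pointed lower, down to -0.087. LGR4, the R-spondin receptor, depended on the probe set. The brightest had 5.28, 5.34 and 5.26 in fusion tumors and 4.89, 5.53 and 5.29 in vector tumors (0.054, limma adjusted p = 0.986; -0.12 without vector tumor 1). The other LGR4 probe set had 5.46, 5.13 and 5.32 in fusion tumors and 4.998, 4.43 and 4.57 in vector tumors, with no overlap (0.64, SE 0.16, limma adjusted p = 0.547 over all probe sets naming 1 gene). It carries the suffix for related transcripts too. AXIN2, DKK4 and LGR4 were picked out after their values were seen.

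**Figure D4:**
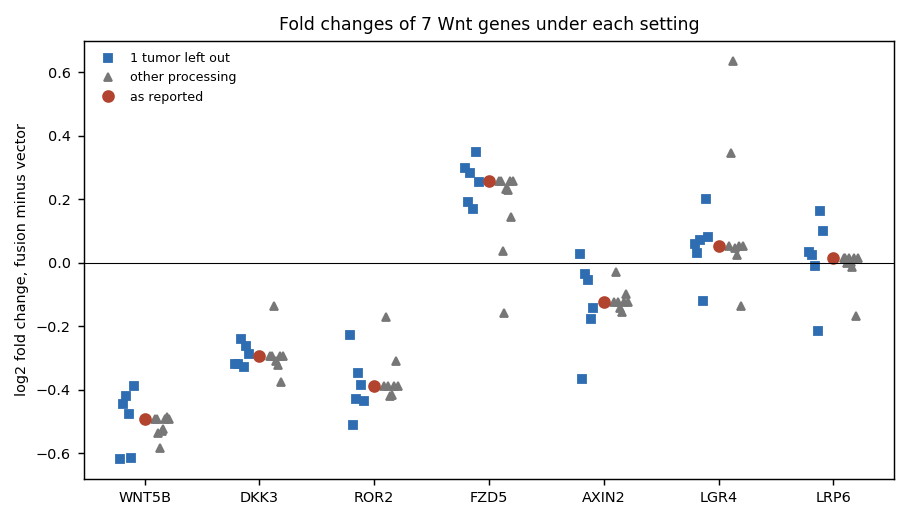
Log2 fold change, fusion minus vector, of 7 Wnt genes as reported (red circles), with 1 tumor left out (blue squares) and under the other processing alternatives (grey triangles). WNT5B, DKK3 and ROR2 stay below 0 under every setting shown, while FZD5, AXIN2, LGR4 and LRP6 take both signs.

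Elsewhere in the pathway, 4 further lists covered 127 genes, of which 99 were tested. Of these 99, 0 passed by limma over all genes, beside 0.073% of all tested genes, and 6 (6.06%) had an unadjusted p below 0.05, of which 4 were higher and 2 lower, beside 5.89% of all tested genes. Among 22 tested transcripts known as targets of beta-catenin and TCF in some tissues (median log2 fold change 0.075), JUN, an AP-1 subunit, and CLDN1, a tight junction protein, stood out. JUN had 9.25, 9.62 and 9.72 in fusion tumors and 8.69, 8.76 and 8.64 in vector tumors, without overlap (0.83, SE 0.13, limma adjusted p = 0.120). CLDN1 had 11.01, 11.41 and 11.36 in fusion tumors and 10.77, 10.26 and 9.93 in vector tumors, again without overlap (0.94, SE 0.21, limma adjusted p = 0.322). Both are targets of other pathways as well. The other 20 were not at an unadjusted limma p below 0.05, among them PLAUR (0.52), FOSL1 (0.27), SOX9 (0.25), MYC (0.16) and CCND1 (0.16).

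**Figure D5:**
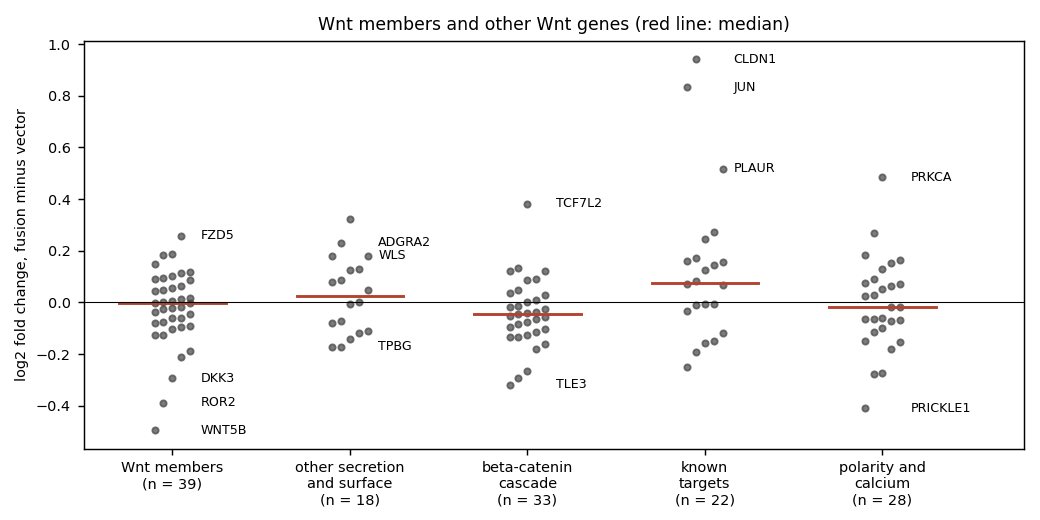
Log2 fold change, fusion minus vector, of every tested gene (points) of the Wnt module and of 4 further Wnt lists, with the median of each list as a line and some genes named. The medians lie between -0.044 and 0.075, and JUN and CLDN1 are the farthest points from 0.

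In the cytoplasmic and nuclear cascade, 33 genes were tested, with a median of -0.044, 11 above 0 and 22 below, beside 49.2% of all tested genes below 0. CTNNB1, which encodes beta-catenin, had 11.91, 11.99 and 11.77 in fusion tumors and 11.88, 12.04 and 12.14 in vector tumors (log2 fold change -0.13, 95% interval -0.37 to 0.12, limma adjusted p = 0.963). TCF7L2, the main TCF factor of many epithelia, had 9.19, 9.08 and 9.16 in fusion tumors and 8.40, 8.93 and 8.95 in vector tumors (0.38, SE 0.15, limma adjusted p = 0.780). Every fusion value was above every vector value, and vector tumor 1 was the lowest; without it the log2 fold change was 0.20. The Groucho corepressors TLE3 (-0.32), TLE1 (-0.29) and TLE2 (-0.27), which bind TCF factors, had lower means in fusion tumors, while TLE4 of the same family was at -0.042. By limma, TLE3 was at an unadjusted p below 0.05 and TLE1 and TLE2 were not, and the adjusted p was 0.730 for TLE3, 0.855 for TLE1 and 0.882 for TLE2.

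The polarity and calcium branches had 28 tested genes and a median of -0.017. PRKCA, the protein kinase C alpha isoform, had 10.49, 10.52 and 10.48 in fusion tumors and 9.91, 10.23 and 9.88 in vector tumors (log2 fold change 0.49, SE 0.11, limma adjusted p = 0.357). PRICKLE1, a core planar polarity protein, had 6.66, 6.39 and 6.36 in fusion tumors and 6.78, 6.81 and 7.04 in vector tumors (-0.41, SE 0.12, limma adjusted p = 0.526). Neither gene overlapped between the groups. NLK and CAMK2G, kinases of these branches, were at -0.27 and 0.17. Among 18 other secretion and surface genes (median 0.025), 0 had a limma p below 0.05. WLS, which carries Wnts to the surface, had 9.87, 9.71 and 9.76 in fusion tumors and 9.63, 9.65 and 9.52 in vector tumors (0.18, SE 0.092, limma adjusted p = 0.917), with no overlap. ADGRA2 (0.23), TPBG (-0.17) and SOSTDC1 (0.18) were the next by p.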

How the data were processed

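Total RNA from 6 xenograft tumors was extracted with Trizol, biotin-labelled and put on Affymetrix arrays, 1 array per tumor, per the labels' protocols. Titles gave groups and replicate numbers. The deposited table holds log2 values for 49293 probe sets. That scale was inferred from their range, and how background, normalization and summarisation were handled is not given in the sources used. Of these probe sets, 44988 named 1 gene, and the brightest per gene was used (18132 genes). Genes under the 30th percentile of probe sets (4.94) were dropped, leaving 13694. Each gene was fitted with limma (version 3.58.1, R 4.3.3) by lmFit and eBayes, and p-values were adjusted by Benjamini-Hochberg across these genes, with 0.05 as the threshold. The labels call the tumors biological replicates. The code was tested on simulated data. Deviations from the group means correlated at r = 0.097, 0.17 and 0.051 for same-numbered tumors. For differently numbered tumors r was -0.14 to -0.018. The titles do not call same-numbered tumors pairs, and the main fit did not treat them as such. A fit with the replicate number as a block is given below.

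Members and lists were chosen with earlier results of these data known. Named are the 14 members with the smallest p, the 2 brightest per role, and from each further list the 4 with the smallest p, with CTNNB1, WLS and TCF7L2. Others named were picked after their values were seen. Promoters came from RefSeq's GRCh38.p14 table. Alternatives changed the filter, probe set choice, scaling, variance model, array weights, replicate block and threshold, and left out each tumor. Figures used Python 3.11.15 and matplotlib 3.10.9.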

Additional observations from a re-analysis of the deposited data

How the results depend on the processing

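The count of 0 Wnt members past the threshold held under all 16 alternatives. The count of all genes was 10, and became 1 with the filter at the 50th percentile, 16 with the mean of the probe sets of a gene, 6 with the most variable probe set, 140 with array weights and 0 to 37 with 1 tumor left out (0 without fusion tumor 1, 37 without vector tumor 1). Members at an unadjusted limma p below 0.05 numbered 6 with array weights (13.5% of all genes) and 2 to 5 with 1 tumor left out (5 without fusion tumor 2, beside 5.02% of all genes, and 5 without vector tumor 1, beside 9.19%; 3.93% to 6.17% of all genes without each other tumor). The members' median log2 fold change ran from -0.073, without vector tumor 2, to 0.012 when tumors were left out. Of the 4 further lists, 1 gene passed the threshold with the mean of probe sets (JUN, limma adjusted p = 0.0436), beside 0.127% of all genes. With array weights 3 passed (JUN, CLDN1 and PLAUR), beside 1.02% of all genes. With 1 tumor left out 0 to 1 passed. That gene was CLDN1 without vector tumor 1 (limma adjusted p = 0.0333), beside 0.27% of all genes. The replicate block gave 8 genes, 0 members and, for WNT5B, an adjusted p = 0.488, and it changed no call of a Wnt gene. WNT5B kept an unadjusted p below 0.05 in all 15 settings that gave it a value (log2 fold change -0.62 to -0.39, adjusted p 0.135 to 1.00), DKK3 in 12 of 14 (-0.38 to -0.14; not without fusion tumor 3, nor with the mean of its probe sets, -0.14) and ROR2 in 10 of 14 (-0.51 to -0.17). Among the members followed through these settings, signs changed for FZD5 and for 11 that lay between -0.13 and 0.15. WNT2B, FZD4, FZD7, SFRP1 and SFRP5, named above, were not among those followed. With the most variable probe set FZD5 was at -0.16, TCF7L1 at -0.063 and APC at 0.22, and with the mean of probe sets TCF7L1 was at -0.0010 and APC at 0.065. DKK1 was at -0.015 with quantile normalization and -0.028 with median centring, where LRP6 was at -0.013. With array weights LRP6 was at -0.17, APC at 0.014, ZNRF3 at 0.032 and LGR4 at -0.14. With 1 tumor left out the range was -0.0035 to 0.19 for WNT10B, -0.18 to 0.26 for DKK1, -0.22 to 0.16 for LRP6, -0.13 to 0.094 for ROR1, -0.097 to 0.040 for APC, -0.097 to 0.012 for RNF43, -0.22 to 0.17 for ZNRF3, -0.076 to 0.11 for NKD1, -0.37 to 0.026 for AXIN2 and -0.12 to 0.20 for LGR4. The cause of these changes was not tested. With 3 tumors per group, the median half-width of a member's 95% interval was 0.27 log2 units, and most differences smaller than that could not be told from 0.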
